A study of Mus musculus with 16 samples.

Results

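The 10 genes described here, *Tfap2a*, *Tfap2b*, *Pax3*, *Msx1*, *Foxd3*, *Sox10*, *Ets1*, *Snai1*, *Twist1* and *Dlx2*, encode transcription factors that regulate the neural crest, and were taken by name from the 29453 genes counted in the series by a rule that uses no measured value, with earlier results of these data known. The series profiled chimeric mouse embryos by droplet single-cell RNA sequencing, in which each transcript molecule is counted by its unique molecular identifier (UMI). *Stat3* null embryonic stem cells (ESCs) of the CD1 strain, which carry a nuclear tdTomato reporter, had been injected into wild-type (WT) CD1 blastocysts, and whole embryos of embryonic day (E) 7.5, E8.5 or E9.5 were made into cell suspensions. Sorting gave a tdTomato-positive fraction, called *Stat3* null here, and a tdTomato-negative fraction of host cells, called WT. Each genotype had 2 libraries of E7.5, 2 of E8.5 and 4 of E9.5, 16 in all, lettered A to D within a group, where a letter is only a name. Both genotypes thus grew side by side in the same embryos. The null allele lacks exons near the 3′ end of *Stat3*, which a Neomycin resistance cassette replaces. E7.5 and E8.5 embryos were pooled before sorting and E9.5 embryos were handled singly, but which library came from which pool or embryo is not known. The E7.5 embryos had been classed by size as large or small, so libraries of that stage may differ in embryo size. Each stage had its own embryos, pooled at E7.5 and E8.5 and single at E9.5, so stage cannot be told apart from pool or handling. Since only a pair of embryos was used at E9.5, the 4 libraries per genotype of that stage share embryos. P-values and confidence intervals measure the spread between libraries, not between embryos, so p-values may be too small and intervals too narrow. Genotype comparisons do not use the pairing of null and WT cells by embryo, which can also make p-values too large and intervals too wide.

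The neural crest arises at the border of the neural plate, where AP-2 factors (*Tfap2a*, *Tfap2b*), *Pax3* and *Msx1* act together to set up a competent border. *Foxd3*, *Ets1*, *Snai1* and *Sox10* then specify the crest, and the cells leave the neural tube through an epithelial-mesenchymal transition and migrate. Cells that stay on the glial, neuronal and pigment path keep *Sox10*, whereas cells that settle in the branchial arches and face become skeletal mesenchyme, in which *Twist1* and the distal-less factor *Dlx2* act. Most of the 10 also act outside the crest, for example *Pax3* in somites, *Ets1* in endothelium and *Tfap2a* in the epidermis.

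In the GRCm38 annotation (GENCODE M21) all 10 are protein-coding genes. *Tfap2b* (chr1:19208914-19238576, plus strand) and *Pax3* (chr1:78101267-78197134, minus strand) share a chromosome, as do *Dlx2* (chr2:71543408-71546754, minus) and *Snai1* (chr2:167538195-167542814, plus). *Foxd3* lies at chr4:99656299-99658622 (plus), *Msx1* at chr5:37820485-37824583 (minus), *Ets1* at chr9:32636221-32757820 (plus), *Twist1* at chr12:33957671-33959829 (plus), *Tfap2a* at chr13:40715302-40738376 (minus) and *Sox10* at chr15:79154908-79165240 (minus). *Tfap2a* overlaps 3 predicted genes on the opposite strand, *Ets1* overlaps *Gm27240* on the opposite strand, and *Foxd3* overlaps *Gm23366* on its own strand. The 10x 3′ chemistry keeps the strand of a read and Cell Ranger counts by it, so of these overlaps that of *Foxd3* with *Gm23366* could share reads.

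Because STAT3, AP-2 and Snail or Twist proteins bind DNA, the 250 bases before each gene's start were searched for 3 motifs, on both strands: the STAT core TTCNNNGAA, the AP-2 core GCCNNNGGC and the E-box CANNTG. RefSeq promoter sequences (GRCm38.p6) matched 7 of the 10 genes by symbol, with 8 windows since *Tfap2a* has 2. The STAT core was found in 0 of the 8 windows, against 7.02% of 32851 promoter windows of the same length, and the AP-2 core in that of *Snai1* alone, against 13.7%. E-boxes were in the windows of *Dlx2*, *Foxd3*, *Msx1*, *Snai1* and *Tfap2b*, against 66.2% of all windows. A match is only a run of letters, and a missing match says nothing of binding elsewhere. The windows of *Snai1* (chr2:167537945-167538194, plus strand), *Dlx2* (chr2:71546755-71547004, minus strand) and *Foxd3* (chr4:99656049-99656298, plus strand) are shown, 5′ to 3′, because they hold the AP-2 core and the 3 CACGTG E-boxes. Capitals mark the matches, which are CACCTG and the AP-2 core GCCATTGGC in *Snai1* and CACGTG in the other two, and the last base of each lies next to the start site.
Snai1: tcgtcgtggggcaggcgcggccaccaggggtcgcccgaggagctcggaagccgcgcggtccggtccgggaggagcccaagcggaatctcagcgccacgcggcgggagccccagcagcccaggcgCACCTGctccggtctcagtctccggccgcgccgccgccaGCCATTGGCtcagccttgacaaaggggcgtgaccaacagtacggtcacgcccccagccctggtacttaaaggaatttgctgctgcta
Dlx2: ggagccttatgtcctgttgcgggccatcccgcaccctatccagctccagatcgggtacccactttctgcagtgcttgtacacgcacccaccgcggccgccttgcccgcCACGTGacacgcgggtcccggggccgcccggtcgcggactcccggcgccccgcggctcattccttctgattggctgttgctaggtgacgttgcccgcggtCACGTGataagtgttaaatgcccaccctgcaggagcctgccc
Foxd3: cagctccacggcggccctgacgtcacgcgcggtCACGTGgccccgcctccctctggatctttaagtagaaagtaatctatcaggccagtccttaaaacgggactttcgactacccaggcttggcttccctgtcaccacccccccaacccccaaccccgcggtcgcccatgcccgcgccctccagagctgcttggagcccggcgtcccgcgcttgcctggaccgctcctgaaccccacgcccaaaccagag

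Of 41832 cells, 37841 were analysed once called doublets and tomato-td carriers of the WT sort had been set aside, 360 to 4327 per library, with 20682659 to 138613245 UMIs per library. The sort was checked on tomato-td, with a UMI in 72.3 to 98.3% of null-sorted and 0.104 to 8.47% of WT-sorted cells, the lowest null value being that of E8.5 null B. *Stat3* itself was at 1.34, 2.04 and 2.24 UMIs per 1000000 UMIs (CPM) in null cells of the 3 stages and at 8.06, 7.67 and 6.48 CPM in WT cells. Which part of *Stat3* the counted reads came from was not examined. E9.5 WT C and D shared 292 cell barcodes, 10 of them under the same cell type in both, and each of the other pairs of libraries shared at most 8. The comparisons of genotypes were therefore also made without E8.5 null B, E9.5 WT C or E9.5 WT D, and those values are given beside the differences described most closely.

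Cell types are the labels the authors transferred from the 25 nearest cells of a mouse atlas, 87 in all, and 3 of them are of crest origin: Migratory neural crest, Branchial arch neural crest and Frontonasal mesenchyme. The transfer used variable genes that may include the 10, so their levels by cell type are a description, with no test. The labels were checked on marker genes. In Migratory neural crest 7 of 8 markers were at 10 CPM or more at both stages in both genotypes, 4 of the 8 being genes described here. Apart from those, the neuregulin receptor *Erbb3* was at 62.7 CPM and the endothelin receptor *Ednrb* at 129 CPM in WT cells at E9.5. In Branchial arch neural crest 8 of 8 markers reached 10 CPM at E9.5, among them *Dlx1*, *Dlx5*, *Dlx6* and *Hand2*, and in Frontonasal mesenchyme 7 of 7 did, among them *Alx1* and *Alx4*. The frontonasal markers did not set these labels apart: 7 of 7 reached 10 CPM in Branchial arch neural crest too, with a summed level of 1327 to 1822 CPM at E9.5 over both genotypes, against 933 to 1095 CPM in Frontonasal mesenchyme itself. The Branchial arch markers summed to 1133 to 1337 CPM in Branchial arch neural crest and to 562 to 806.6 CPM in Frontonasal mesenchyme. Migratory neural crest held 24 to 158 cells per library, Branchial arch neural crest 11 to 188 and Frontonasal mesenchyme 1 to 91, and a library entered a value or a test of a cell type only with more than 15 cells.

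In WT cells the 10 genes ranged from crest-restricted to widespread. Of 40 cell types with enough cells at E9.5, *Foxd3* and *Sox10* reached a mean of 10 CPM in 1, *Dlx2* in 8, *Tfap2b* in 9, *Tfap2a* in 11, *Snai1* in 18, *Ets1* in 19, *Pax3* in 22, *Msx1* in 29 and *Twist1* in 37. The 3 crest types supplied 78.2% of all *Sox10* UMIs of WT libraries at E9.5 and 75.2% of those of *Foxd3*, but 11.4% of those of *Pax3* and 9.0% of those of *Msx1* (means over 4 libraries). At E8.5 the crest types held 84.9% of the *Sox10* and 79.0% of the *Tfap2b* UMIs, and at E9.5 49.6% of the *Tfap2b* UMIs.

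**Figure D1:**
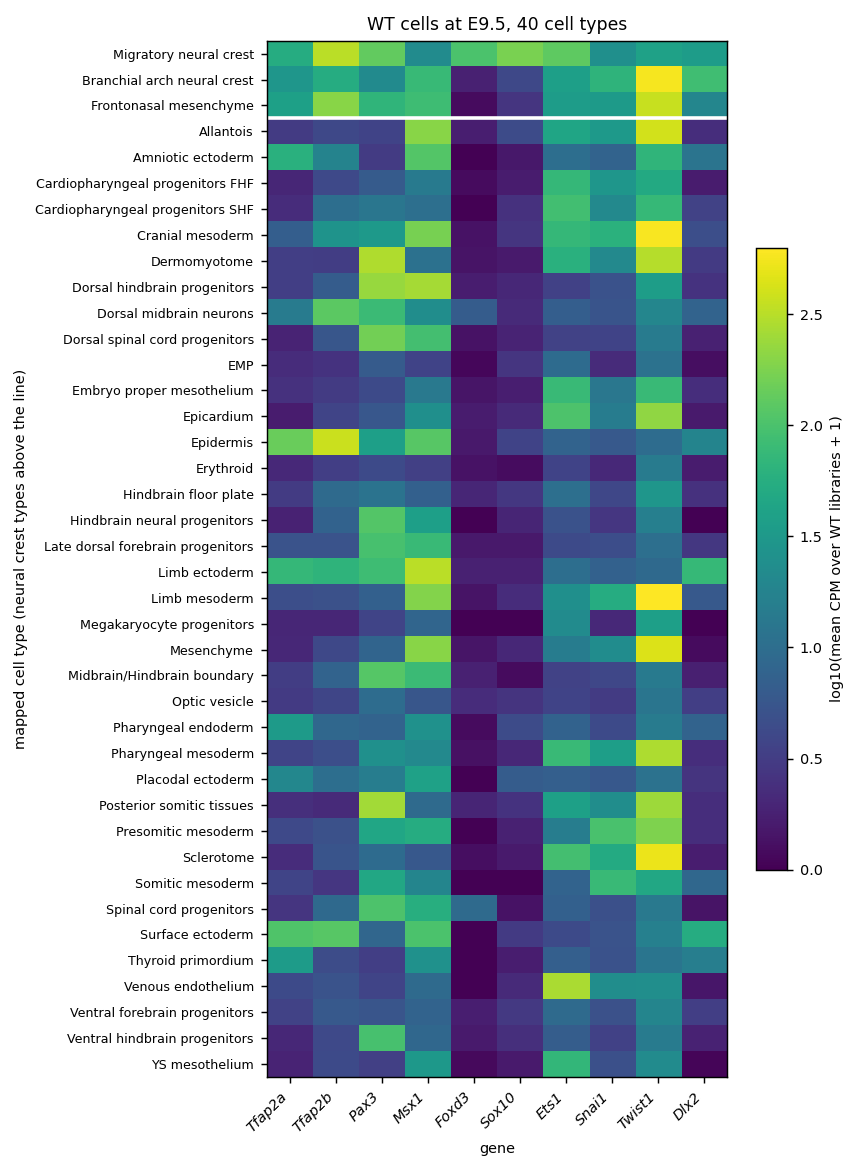
Colours give, for 10 genes (columns) and 40 mapped cell types (rows, crest types above the white line), log10 of the mean CPM over WT libraries at E9.5 plus 1. *Foxd3* and *Sox10* are bright in Migratory neural crest alone, whereas *Twist1*, *Msx1* and *Pax3* are bright in many types outside the crest.

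Of the border genes, *Pax3* and *Msx1* were highest outside the crest, and the AP-2 genes in epidermis or in crest, depending on the cell minimum. *Tfap2a*, an AP-2 factor of ectoderm and crest, was highest at E9.5 in Epidermis (102 to 192 CPM over 4 WT libraries), whose range overlapped that of Surface ectoderm, with Migratory neural crest in the fifth place at 54.7, 66.1, 49.6 and 39.1 CPM. *Tfap2b*, its paralogue, was highest in Epidermis (309.5 to 464 CPM), whose range overlapped that of Migratory neural crest at 298, 363, 315 and 297 CPM, and the crest in turn lay apart from Frontonasal mesenchyme, the next type (165 to 237 CPM). Both AP-2 genes were thus high in epidermis and in crest, and with more than 50 cells per library, which leaves Epidermis out, both were highest in Migratory neural crest. *Pax3*, a paired-box factor of dorsal neural tube and somite, had overlapping ranges in Dermomyotome (237 to 327 CPM), Posterior somitic tissues and Dorsal hindbrain progenitors, and was at 135, 142, 122 and 134 CPM in Migratory neural crest. *Msx1*, a BMP-responsive homeobox gene, was highest in Limb ectoderm (307 and 339 CPM, 2 libraries), apart from Dorsal hindbrain progenitors (224 to 297 CPM). *Msx1* in Migratory neural crest was at 44.5, 10.4, 6.94 and 24.7 CPM.

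The specifiers divided into crest-restricted and shared genes. *Foxd3*, a forkhead factor of premigratory and migrating crest, stood at 100.2, 118, 112 and 74.5 CPM in Migratory neural crest of WT libraries A to D, and the next type, Spinal cord progenitors, at 0 to 18.5 CPM. *Sox10*, the SoxE factor that crest glia, neurons and pigment cells need, stood at 199, 177, 177 and 129 CPM there, and the next type, Placodal ectoderm, at 3.33 to 7.58 CPM. For both genes every library of Migratory neural crest lay above every library of every other type among the 40 with enough cells. Over all labels, Otic placode supplied 3.17% of the *Sox10* UMIs pooled over WT libraries at E9.5. That was the next largest part after Migratory neural crest with 75.3%, ahead of Branchial arch neural crest with 2.10%. *Ets1*, which cranial crest shares with the endothelium, was highest in Venous endothelium at E9.5 (258 to 296 CPM, 3 libraries), apart from Migratory neural crest at 115, 154, 109 and 129.6 CPM. At E8.5 these same types overlapped, with 227 and 257 CPM in Venous endothelium and 233 and 254 CPM in Migratory neural crest. *Snai1*, a zinc-finger repressor of E-cadherin, was highest in Presomitic mesoderm (93.7 and 99.5 CPM, 2 libraries) with Branchial arch neural crest in the third place at 63.5, 69.7, 65.9 and 62.4 CPM.

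The mesenchymal regulators were both high in the arches, *Twist1* there as in other mesenchyme. *Twist1*, a bHLH factor of head and limb mesenchyme, had overlapping ranges in Limb mesoderm (599.6 to 668 CPM), Cranial mesoderm and Branchial arch neural crest (649, 604, 544 and 523 CPM), and was at 35.9, 20.7, 18.3 and 80.5 CPM in Migratory neural crest. *Dlx2*, which patterns the arches, was highest in Branchial arch neural crest (86.2, 97.3, 92.6 and 71.1 CPM), overlapping Limb ectoderm, and was at 22.2, 20.2, 18.6 and 11.9 CPM in Frontonasal mesenchyme. The order of types depended on the cell minimum: with more than 50 cells per library 19 types were left and 4 of the 10 genes kept their highest type, *Foxd3*, *Sox10*, *Twist1* and *Dlx2*. Of the other 6, *Tfap2a*, *Tfap2b* and *Ets1* were then highest in Migratory neural crest, *Snai1* in Branchial arch neural crest, and *Pax3* and *Msx1* in Dorsal hindbrain progenitors.

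For each gene the 3 most alike genes were found by Pearson's r of log2(CPM + 1) over the 40 WT E9.5 types, among 11221 genes reaching 10 CPM; the types share libraries, and r is a description. *Sox10* was most like *Cmtm5* (r = 0.91) and *Cdh19* (r = 0.82), and *Foxd3* most like *Insc* (r = 0.81), *Cmtm5* (r = 0.80) and *Cdh19* (r = 0.77). *Tfap2a* was most like *Dlx2* (r = 0.88), *Fxyd3* (r = 0.88) and *Dlx3* (r = 0.86), *Tfap2b* most like *Tfap2a* (r = 0.81), *Dlx1* (r = 0.77) and *Dlx2* (r = 0.76), and *Dlx2* most like *Dlx1* (r = 0.92), *Tfap2a* (r = 0.88) and *Dlx3* (r = 0.82). These 3 thus ran together across ectoderm and crest. *Pax3* was most like *Pax7* (r = 0.84), *Prelid3a* (r = 0.73) and *Ddx28* (r = 0.70), *Msx1* most like *Msx2* (r = 0.82), *Stx18* (r = 0.73) and *Wls* (r = 0.67), and *Ets1* most like *Adgra2* (r = 0.90), *Zcchc24* (r = 0.86) and *Emilin1* (r = 0.85). *Snai1* was most like *Dlc1* (r = 0.87), *Pdgfra* (r = 0.83) and *Twist1* (r = 0.82), and *Twist1* most like *Tmem119* (r = 0.93), *Dnm3os* (r = 0.88) and *Pdgfrb* (r = 0.87). Among the 45 pairs within the 10 genes, r ran from -0.24 for *Pax3* with *Ets1* to 0.88 for *Tfap2a* with *Dlx2*, and was 0.71 for *Foxd3* with *Sox10*.

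Most of the 10 genes rose between E7.5 and E8.5. Over whole WT libraries, 6 of the 10 genes were called higher at E8.5 than at E7.5, at an adjusted p under 0.05 (edgeR quasi-likelihood test, Benjamini-Hochberg over all genes) and an absolute log2 fold change over 1, where 8.48% of 14440 genes were called higher; 0 of the 10 were called lower, where 8.5% were. Over whole libraries, more cells of a type and more RNA per cell cannot be told apart. *Sox10* was at 0 and 0.0553 CPM in the 2 WT libraries at E7.5, 3 UMIs in all, and at 7.45 and 8.58 CPM at E8.5, 1260 UMIs. Scaled to the library totals, that is a ratio of 217 (exact 95% interval of the counts 74.1 to 1053). *Tfap2b* was at 0.0368 and 0.0553 CPM at E7.5, 4 UMIs in all, and at 19.2 and 17.8 CPM at E8.5 (log2 fold change 8.65, SE 0.23, adjusted p = 7.34e-05). Both genes, which mark specified crest, were thus near 0 in both earlier libraries and at 7 CPM or more in both later ones. They passed a filter on low counts only through the E8.5 libraries, so a call for them could only be higher at E8.5.

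*Dlx2* rose from 0.478 and 0.442 to 4.64 and 3.94 CPM (log2 fold change 3.39, SE 0.24, adjusted p = 0.000597), *Pax3* from 5.04 and 2.01 to 27.3 and 28.5 CPM (3.24, SE 0.42, adjusted p = 0.0089). *Twist1* rose from 39.2 and 39.0 to 117 and 98.3 CPM (1.63, SE 0.11) and *Tfap2a* from 5.59 and 4.70 to 9.73 and 10.7 CPM (1.16, SE 0.13). In these 4 genes both E8.5 libraries lay above both E7.5 libraries. The other 4 were not called. *Ets1* passed the adjusted p with a log2 fold change of 0.80 (adjusted p = 0.00507), under the fold threshold. *Snai1*, which gastrulating mesoderm uses, had 19.2 and 21.6 CPM at E7.5 and 15.2 and 14.7 CPM at E8.5 (adjusted p = 0.0762), and *Msx1* had 69.3 and 64.2 and then 55.3 and 65.7 CPM, overlapping (log2 fold change after TMM scaling 0.03, 95% interval -0.19 to 0.24). *Foxd3*, which the epiblast also expresses, had 0.258 and 2.47 CPM at E7.5 and 3.92 and 5.88 CPM at E8.5 (1.85, SE 0.88, adjusted p = 0.176). Its E7.5 libraries lay far apart, and without E7.5 WT B its log2 fold change was 4.44. With 1 WT library left at E7.5, that fit took in all remaining libraries of every stage and both genotypes. It takes the lone library to vary as they do.

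**Figure D2:**
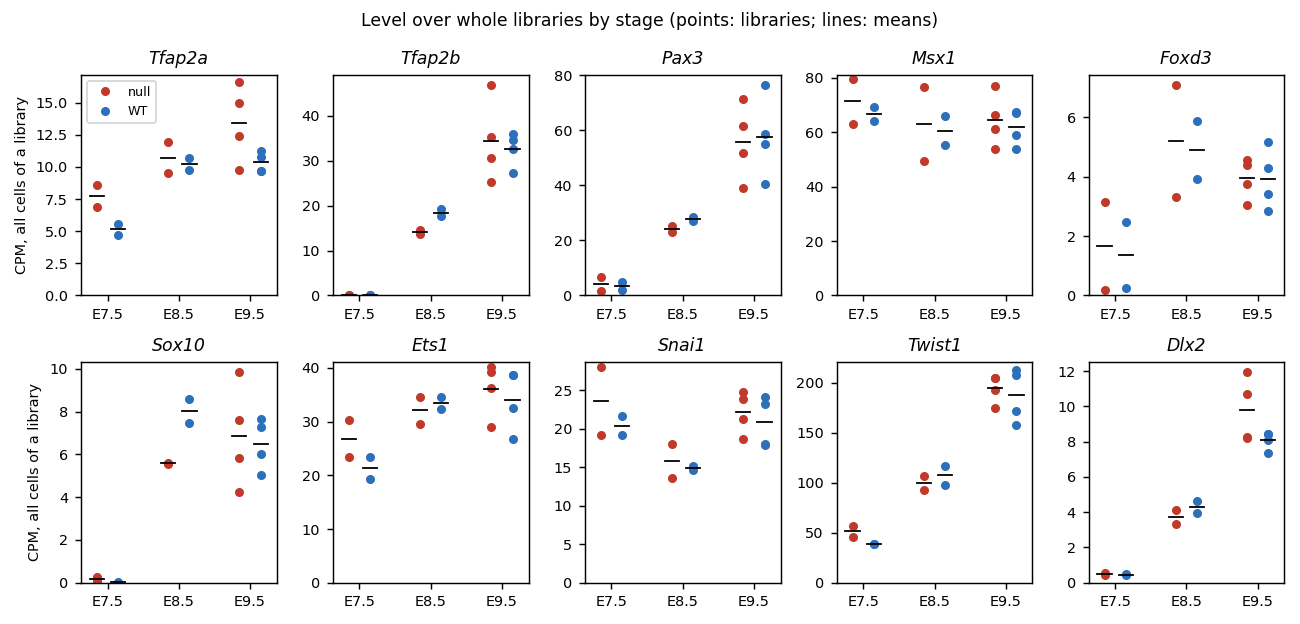
Each panel gives 1 gene's CPM over all analysed cells of a library (y axis) at the 3 stages (x axis), with a point per library (red null, blue WT) and a line at each group's mean. *Sox10*, *Tfap2b* and *Dlx2* lie near 0 at E7.5 in both genotypes, and *Msx1* and *Snai1* are already expressed then.

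From E8.5 to E9.5, 0 of the 10 were called over whole WT libraries by edgeR and by DESeq2, where 6.35% of 14970 genes were called higher and 3.3% lower. An unadjusted p under 0.05 was reached by 8 of the 10, where 51% of all genes reached it. On the adjusted p alone 6 of the 10 passed, where 41.6% of all genes did: *Pax3* (0.75), *Dlx2* (0.61), *Tfap2b* (0.52) and *Twist1* (0.50) toward E9.5, and *Tfap2a* (-0.28) and *Sox10* (-0.61) toward E8.5, as log2 fold changes. Each of the 6 missed the threshold when some single library was left out. These fold changes are scaled by TMM, which sets the bulk of genes equal, and for these 6 genes they lie below the ratio of the mean CPM: *Tfap2a* had 10.2 CPM at E8.5 and 10.4 CPM at E9.5.

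Within crest cells, the stages could be compared in Branchial arch and Migratory neural crest of WT libraries. In WT Branchial arch neural crest, 5 of 10 genes were called lower at E9.5 than at E8.5, where 2.07% of 9770 genes were called lower, and 0 were called higher, where 4.79% were. *Sox10* stood at 53.5 and 60.8 CPM in the 2 E8.5 libraries and at 3.16, 0.778, 4.17 and 4.04 CPM in the 4 E9.5 libraries. Every E9.5 library was thus more than 10-fold below both E8.5 libraries (log2 fold change -4.28, SE 0.23, edgeR adjusted p = 3.56e-11). *Foxd3* stood at 4.29 and 12.3 CPM at E8.5 and at 0.287, 2.34, 0.278 and 0.384 CPM, 10 UMIs in all, at E9.5, with no overlap (log2 fold change -3.55, SE 0.66, edgeR adjusted p = 0.000556). It passed the filter on low counts only through the E8.5 libraries, so a call could only be lower at E9.5. *Ets1* fell from 148 and 155 CPM to 26.2, 38.9, 37.0 and 44.2 CPM, again with no overlap (log2 fold change -2.22, SE 0.14, edgeR adjusted p = 4.08e-08). These 3 are specifiers of migrating crest.

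The AP-2 genes also fell in the arches. *Tfap2b* was at 125 and 126 CPM at E8.5 and at 35.1, 49.0, 52.0 and 75.9 CPM at E9.5 (log2 fold change -1.40, SE 0.31, edgeR adjusted p = 0.0356), all E9.5 libraries being lower. Without E9.5 WT B or E9.5 WT C its adjusted p was 0.0827 or 0.0828. *Tfap2a* was at 51.5 and 50.4 CPM and then at 27.9, 28.4, 32.2 and 25.4 CPM (log2 fold change -1.04, SE 0.14, edgeR adjusted p = 7.84e-06), and without E9.5 WT D its log2 fold change was -0.98, under the fold threshold. The mesenchymal regulators were not called. *Twist1* had 705 and 667 CPM at E8.5 and 649, 604, 544 and 523 CPM at E9.5, with a log2 fold change of -0.43 that passed the adjusted p (0.00028) but not the fold threshold, as did *Snai1* with -0.59 (adjusted p = 0.000478). *Dlx2* had 61.0 and 59.0 CPM and then 86.2, 97.3, 92.6 and 71.1 CPM (0.33, adjusted p = 0.0668), *Msx1* had 34.6 and 21.5 CPM and then 105, 47.9, 69.5 and 77.6 CPM (1.16, adjusted p = 0.119). *Pax3* differed by -0.20 (95% interval -0.61 to 0.20). In the same cells the summed CPM of 5 blood genes was 726 to 832 at E8.5 and 100.4 to 388 at E9.5. That of 6 neural tube markers was 55.9 to 59.5 and 80.2 to 99.8, and that of 6 surface ectoderm and placode markers 41.5 to 73.1 and 79.4 to 113. For 5 somite and muscle markers it was 16.3 to 20.9 and 36.5 to 90.5, and for 4 heart markers 11.7 to 28.3 and 3.61 to 9.80. The part of these transcripts in the results was not tested.

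In WT Migratory neural crest, 1 of 10 genes was called lower at E9.5, where 1.5% of 9738 genes were, and 0 were called higher, where 4.33% were. It was *Ets1*, at 233 and 254 CPM at E8.5 and 115, 154, 109 and 129.6 CPM at E9.5, with every later library lower (log2 fold change -1.09, SE 0.11, edgeR adjusted p = 7.68e-06). *Snai1* had 40.1 and 40.7 CPM and then 25, 22.9, 20.3 and 27.1 CPM, also without overlap, with a log2 fold change of -0.91 just under the fold threshold (adjusted p = 0.000576). *Sox10*, by contrast, had 123 and 127 CPM at E8.5 and 199, 177, 177 and 129 CPM at E9.5 (0.29, 95% interval 0.01 to 0.57, adjusted p = 0.144), all 4 later libraries lying above both earlier ones. *Foxd3* had 102 and 102 CPM and then 100.2, 118, 112 and 74.5 CPM (-0.17, 95% interval -0.47 to 0.12), a range that spans the earlier libraries. The intervals of *Sox10* and *Foxd3* in Migratory neural crest thus lie well above those in Branchial arch neural crest, -4.77 to -3.80 and -4.92 to -2.18; both types come from the same libraries, and the difference itself was not tested.

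*Pax3* passed the adjusted p in Migratory neural crest with a log2 fold change of -0.40 (adjusted p = 0.00448; up to 0.0957 with a library left out). *Tfap2b* (0.18), *Dlx2* (0.09) and *Tfap2a* (-0.43) did not pass, with adjusted p = 0.158, 0.76 and 0.0676. *Twist1* had 122 and 104 CPM at E8.5 and 35.9, 20.7, 18.3 and 80.5 CPM at E9.5 (-1.68, 95% interval -3.35 to -0.01, adjusted p = 0.158). All E9.5 libraries were lower, but they spread about 4-fold, and without E9.5 WT D *Twist1* passed both thresholds (-2.31, adjusted p = 3.9e-05). *Msx1*, with a log2 fold change of -1.21 (95% interval -3.07 to 0.65), likewise passed without E9.5 WT A (-1.85, adjusted p = 0.0476). In the same cells the summed CPM of 5 blood genes was 719 to 1022 at E8.5 and 86.5 to 386 at E9.5, and that of 6 neural tube markers 177 to 192 and 238 to 341. For 7 frontonasal markers, *Twist1* among them, it was 215.9 to 256.1 and 59.0 to 215.3, and for 5 endothelium markers 5.69 to 6.49 and 2.39 to 2.98. The part of these transcripts in the results here and in those of the wider list was not tested.

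**Figure D3:**
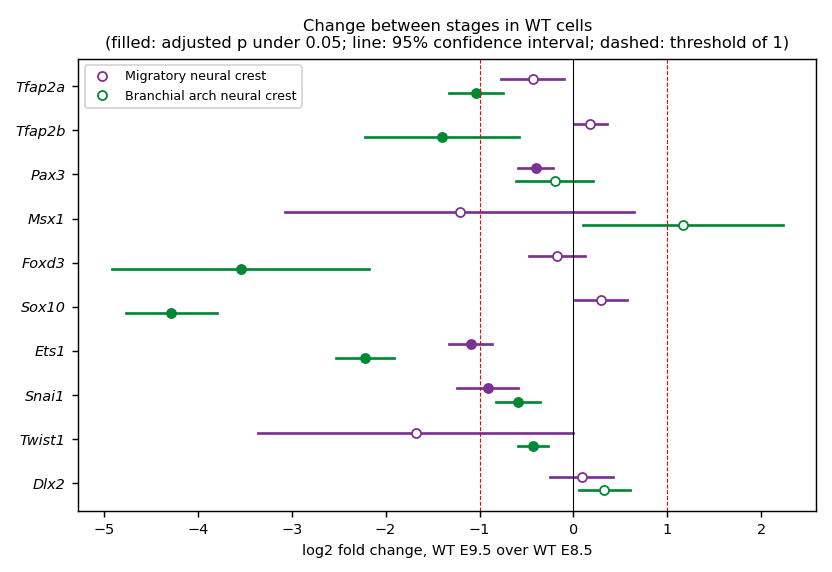
For each gene (y axis) the log2 fold change of WT E9.5 over WT E8.5 cells (x axis) is shown in Migratory neural crest (purple) and Branchial arch neural crest (green), with 95% confidence intervals, filled where the adjusted p is under 0.05. *Sox10* and *Foxd3* lie below -3 in Branchial arch neural crest and near 0 in Migratory neural crest.

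Shares of cells with a UMI are given as a description. With each cell thinned to 10000 UMIs, 40.7% of WT Branchial arch neural crest cells held a *Sox10* UMI at E8.5 and 2.28% at E9.5 (unthinned 73.5 and 8.19%). The Migratory neural crest shares were 68.2% and 76.6% (unthinned 88.4 and 93.1%). Erythroid cells, which should lack *Sox10*, gave 0.958% and 0.185%, which is taken as background. Median depths before thinning were 29217 and 39039.5 UMIs in Branchial arch neural crest, 23600 and 35520 in Migratory neural crest and 31385 and 22601 in Erythroid cells. *Ets1* was detected in 73.3% and 28.8% of thinned Branchial arch neural crest cells (unthinned 92.8 and 68.6%), and *Twist1* in 97.6% and 97.5% (unthinned 99.4 and 99.4%), with 3.16 and 1.37% for *Ets1* and 4.69 and 6.45% for *Twist1* in Erythroid cells. *Foxd3* was detected in 45.6% and 58.9% of thinned Migratory neural crest cells (unthinned 70.1 and 85.9%; Erythroid 0.476 and 0.338%).

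Detection of pairs of genes in the same cells is given as a description. In thinned WT Migratory neural crest cells at E9.5, a *Sox10* UMI was found in 55.0% of the cells with a *Twist1* UMI and 82.2% of those without (means over 4 libraries), and in null cells in 50.4% of the cells with a *Twist1* UMI and 81.2% of those without. The library ranges of carriers and non-carriers overlapped in WT and not in null libraries. In Branchial arch neural crest a *Dlx2* UMI was found in 24.5% of the cells with a *Pax3* UMI and 57.0% of those without in WT and in 27.6% of the cells with a *Pax3* UMI and 52.4% of those without in null libraries, and the library ranges of carriers and non-carriers did not overlap in either genotype. In WT Erythroid cells of E9.5, taken as background, 3.92% held a *Pax3* UMI and 0.996% a *Dlx2* UMI. These pairs were chosen after their values were seen, cells of 1 library share its depth, and no test was made.

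A list of 94 other neural crest genes was followed beside the 10. In WT Branchial arch neural crest, 14 of 69 tested were called higher at E9.5 and 11 lower, where 4.79% of all genes were called higher and 2.07% lower, with a median log2 fold change of 0.37, against 0.03 over all genes tested. Of the 22 tested genes of arch and skeletal mesenchyme, 8 were higher and 0 lower (median 1.77), and of the 13 for migration, glia, neurons and pigment, 0 were higher and 6 lower (median -0.34). *Barx1*, a homeobox gene of arch mesenchyme, went from 1.00 to 307 CPM, and *Erbb3* from 18.1 to 3.97 CPM (log2 fold change -2.38). In WT Migratory neural crest 13 of 70 were called higher and 9 lower, where 4.33% of all genes were called higher and 1.5% lower (median 0.29, against 0.02 over all genes). There 9 of 24 migration, glia, neuron and pigment genes were higher and 0 lower (median 1.02), and 0 of 10 border genes were higher and 5 lower (median -1.13). Of the SoxE genes, *Sox8* went from 2.84 to 13.6 CPM (log2 fold change 2.09) and *Sox9* from 203 to 108 CPM (-1.06), and the border gene *Zic2* from 21.8 to 5.16 CPM (-2.20). These examples were chosen after their values were seen.

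In *Stat3* null cells the stages could be compared in Migratory neural crest, since null Branchial arch neural crest had 1 library with more than 15 cells at E8.5. There 0 of 10 genes were called by edgeR and by DESeq2, where 5.12% of 9501 genes were called by edgeR. An unadjusted p under 0.05 was reached by 6 of 10, where 29.1% of all genes reached it, and 3 of 10 passed the adjusted p alone, where 15.3% did: *Snai1* (-0.91, adjusted p = 0.0024), *Ets1* (-0.60, 0.00821) and *Tfap2a* (-0.52, 0.0354). *Snai1* had 40.1 and 49.5 CPM at E8.5 and 25.4, 23.6, 31.0 and 29.7 CPM at E9.5, every later library being lower, and *Ets1* had 230.0 and 188 and then 130.4, 155, 168 and 190.5 CPM, with overlap. *Twist1* was called without E9.5 null C (-1.19), and without E8.5 null A the log2 fold change of *Snai1* was -1.10. With 1 null library left at E8.5, the fit for *Snai1* took in all remaining libraries of the type, of every stage and both genotypes. Of the wider list, 8 of 64 were called higher and 5 lower (median 0.46, against 0.03 over all genes). In these null cells the summed CPM of 5 blood genes was 238 to 681 at E8.5 and 3.47 to 31.3 at E9.5. That of 6 neural tube markers was 104 to 195 and 261 to 325, and that of 7 frontonasal markers 236.8 to 243.3 and 77.1 to 199. The part of these transcripts in the null stage results was not tested. The difference of the stage change between genotypes was tested as an interaction: 0 of 10 genes were called by edgeR and by DESeq2, where edgeR called 0.00998% of 10019. *Ets1* was the 1 gene of the 10 with an unadjusted p under 0.05, with a difference of 0.48 (SE 0.20, unadjusted p = 0.0312, adjusted p = 1.0). In the only null library of Branchial arch neural crest at E8.5, of 108 cells, *Sox10* was at 45.7 CPM, *Foxd3* at 3.01 CPM and *Ets1* at 133 CPM, and in the 4 null libraries of E9.5 *Sox10* was at 5.20, 4.39, 9.74 and 4.68 CPM, *Foxd3* at 1.09, 1.14, 0 and 0.826 CPM and *Ets1* at 29.4, 45.6, 43.8 and 38.5 CPM. For all 3 genes the 4 later null libraries lay below the earlier one, and this has no test.

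Between *Stat3* null and WT crest cells, 0 of the 10 genes were called in any crest type, by edgeR or by DESeq2. In Migratory neural crest at E8.5, 0 of 10 were called, where 0.0218% of 9183 genes were, and the 10 log2 fold changes of null over WT ran from -0.18 to 0.15, the median of their absolute values being 0.14 against 0.15 over all genes. At E9.5 0 of 10 were called there, where 0.149% were. In Branchial arch neural crest 0 of the 9 tested were called, where 0.188% were, and in Frontonasal mesenchyme 0 of 8, where 0.234% were. An unadjusted p under 0.05 was reached by 0, 1, 1 and 2 of them in these 4 comparisons, where 4.97, 6.04, 6.6 and 6.4% of all genes did so. *Foxd3* in Branchial arch neural crest, and *Foxd3* and *Sox10* in Frontonasal mesenchyme, did not pass the filter on low counts. Since a missing call does not show equal levels, the 95% confidence intervals of the log2 fold changes are given.

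*Sox10* in Migratory neural crest at E9.5 had 167, 161, 191 and 136 CPM in null libraries A to D and 199, 177, 177 and 129 CPM in WT libraries A to D. The ranges overlapped, and the log2 fold change was -0.06 (95% interval -0.30 to 0.18). At E8.5 it had 123.1 and 89.6 CPM in null and 123.4 and 126.7 CPM in WT libraries, both null values lying below both WT values, one of them by less than 1 CPM, at -0.17 (-0.46 to 0.11), and at 0.00 without E8.5 null B. *Foxd3* at E9.5 had 84.8, 113, 91.3 and 98.1 CPM in null and 100.2, 118, 112 and 74.5 CPM in WT libraries, overlapping, at -0.08 (-0.35 to 0.19). *Pax3* had 118, 149, 123 and 146 CPM in null and 135, 142, 122 and 134 CPM in WT libraries, at -0.01 (-0.21 to 0.18), and *Tfap2b* had 277, 243, 403 and 315 CPM in null and 298, 363, 315 and 297 CPM in WT libraries, at -0.06 (-0.37 to 0.26). For these 4 genes the E9.5 intervals, which rest on libraries that share embryos and may be too narrow, leave out a 1.5-fold difference in either direction. For *Twist1* and *Msx1* they hold a 2-fold difference either way: *Twist1* had 68.8, 40.5, 21.7 and 72.3 CPM in null and 35.9, 20.7, 18.3 and 80.5 CPM in WT libraries, at 0.36 (-1.09 to 1.82), and *Msx1* was at 0.08 (-1.46 to 1.62).

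*Ets1* was the gene of the 10 nearest to a difference in Migratory neural crest at E9.5. Null libraries A to D had 130.4, 155, 168 and 190.5 CPM and WT libraries 115, 154, 109 and 129.6 CPM. The ranges overlapped, with all 4 null libraries above 3 of the 4 WT libraries (0.31, 95% interval 0.04 to 0.57, edgeR adjusted p = 0.755). At E8.5 the 2 null libraries, with 230.0 and 188 CPM, lay below the 2 WT libraries, with 233 and 254 CPM (-0.18, -0.40 to 0.04; -0.06 without E8.5 null B). Groups apart were also seen there for *Pax3* and *Sox10*, 3 of 10 genes in all, where 34.1% of all genes lay apart in 2 against 2 libraries, and for 0 of 10 at E9.5, where 4.11% did. Leaving out E8.5 null B gave 0 calls among the 10, and so did leaving out E9.5 WT C or E9.5 WT D.

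In Branchial arch neural crest, *Sox10* remained at a low level at E9.5 in both genotypes, 5.20, 4.39, 9.74 and 4.68 CPM in null and 3.16, 0.778, 4.17 and 4.04 CPM in WT libraries. All null libraries were above all WT libraries, as for no other of the 9 genes tested and with groups apart for 4.04% of all genes (0.80, 95% interval 0.09 to 1.51, edgeR adjusted p = 0.657). Without E9.5 WT C or E9.5 WT D the log2 fold change was 0.95 or 0.98. *Twist1* had 571, 627, 651 and 619 CPM in null and 649, 604, 544 and 523 CPM in WT libraries, overlapping (0.10, -0.05 to 0.25), and *Dlx2* had 85.0, 87.0, 84.4 and 83.1 CPM in null and 86.2, 97.3, 92.6 and 71.1 CPM in WT libraries, also overlapping (-0.01, -0.20 to 0.18). For this mesenchymal pair both intervals lay within 0.25 of 0 on the log2 scale. The other 6 genes tested there had log2 fold changes from -0.23 (*Tfap2b*, 95% interval -0.74 to 0.28) to 0.08 (*Ets1*, -0.32 to 0.48).

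In Frontonasal mesenchyme, the crest mesenchyme of the face, *Pax3* had 56.5, 56.1, 48.0 and 55.8 CPM in null and 73.3, 63.4, 59.7 and 66.8 CPM in WT libraries, every null library being lower (-0.26, 95% interval -0.48 to -0.04, edgeR adjusted p = 0.646; -0.30 and -0.25 without E9.5 WT C and D in turn). It was the 1 of 8 genes with groups apart, where 3.85% of all genes were. *Dlx2* had 29.3, 24.8, 19.4 and 21.0 CPM in null and 22.2, 20.2, 18.6 and 11.9 CPM in WT libraries, overlapping (0.45, 0.06 to 0.84, edgeR adjusted p = 0.646). *Tfap2b* (-0.24, -0.52 to 0.05) and *Ets1* (-0.29, -0.59 to 0.02) had intervals that held 0, and *Tfap2a*, *Msx1*, *Snai1* and *Twist1* lay between -0.03 and 0.17.

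*Stat3*, the gene targeted, was low in crest cells of both genotypes. In Branchial arch neural crest at E9.5 it had 2.19, 2.29, 2.43 and 1.65 CPM in null and 8.34, 4.67, 5.0 and 5.0 CPM in WT libraries, with no overlap (-1.41, SE 0.30, edgeR adjusted p = 0.0221; up to 0.162 with a library left out). In Migratory neural crest it had 2.70, 2.70, 1.33 and 2.41 CPM in null and 5.13, 2.86, 5.46 and 3.99 CPM in WT libraries, and in Frontonasal mesenchyme 1.20, 0.387, 1.61 and 1.03 CPM in null and 2.29, 4.8, 3.92 and 4.77 CPM in WT libraries. All null libraries were below all WT libraries in both, and neither passed the filter on low counts. Blood transcripts differed between the genotypes in every crest type at E9.5: the summed CPM of 5 blood genes was 3.47 to 31.3 in null and 86.5 to 386 in WT Migratory neural crest, where *Klf1* and *Alas2* were at 0 in all null libraries. It was 4.06 to 25.3 against 100.4 to 388 in Branchial arch neural crest and 5.03 to 26.5 against 104 to 422 in Frontonasal mesenchyme, with 120446 to 137712 in WT Erythroid cells. At E8.5 it was 238 to 681 against 719 to 1022 in Migratory neural crest. Its part in the comparisons was not tested.

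**Figure D4:**
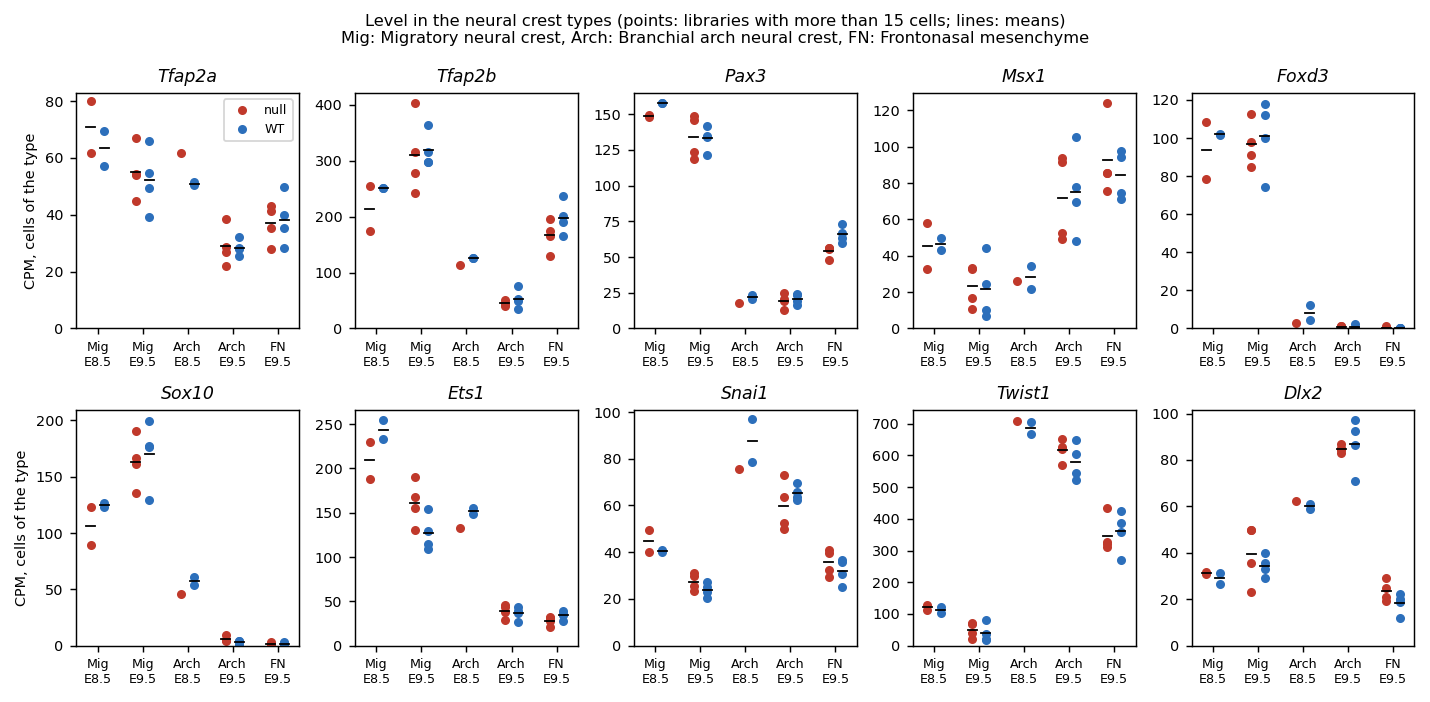
Each panel gives 1 gene's CPM (y axis) in Migratory neural crest (Mig), Branchial arch neural crest (Arch) and Frontonasal mesenchyme (FN) at the stages on the x axis, with a point per library of more than 15 cells (red null, blue WT) and a line at the mean. *Sox10* and *Foxd3* are near 0 in the later Arch libraries of both genotypes, and red and blue points overlap in most panels.

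**Figure D5:**
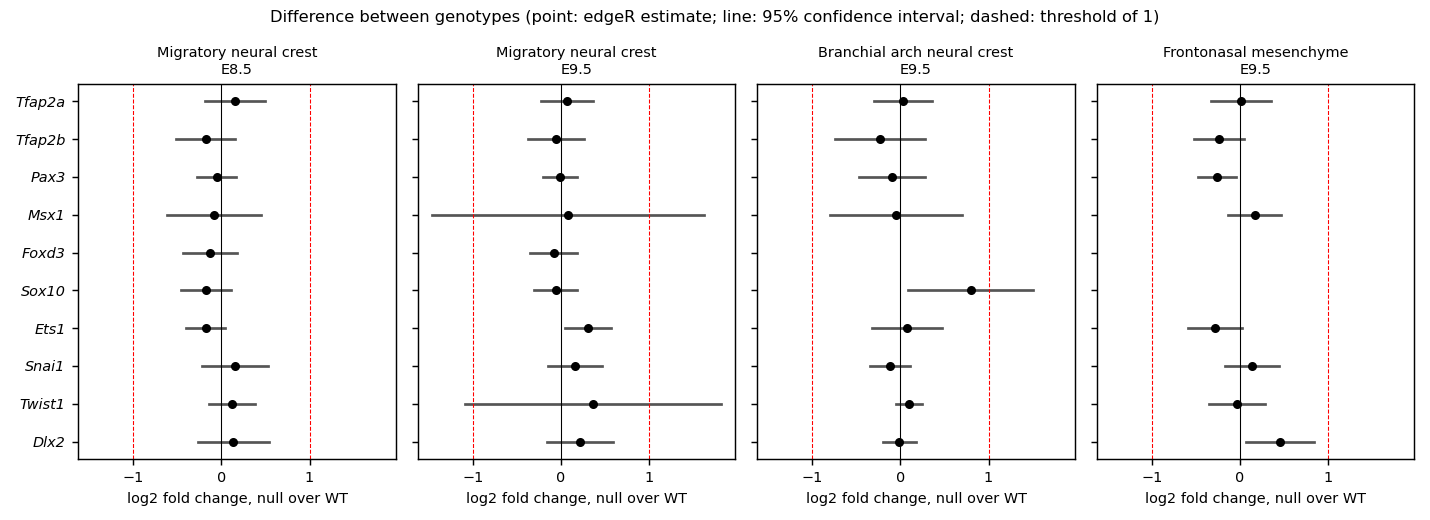
The 4 panels give, for each gene that passed the filter on low counts (y axis), the log2 fold change of null over WT (x axis) with its 95% confidence interval, and dashed lines at -1 and 1. All points lie between the dashed lines, and the intervals of *Msx1* and *Twist1* in Migratory neural crest at E9.5 cross both.

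The genotypes were then compared in every cell type with enough cells, the crest types included. By edgeR, 0 of 30 tests in 7 types were called at E7.5, where 0.185% of all gene tests were, 0 of 83 in 20 types at E8.5, where 0.0622% were, and 0 of 184 in 37 types at E9.5, where 0.121% were. DESeq2 called 0, 1 and 0, the 1 being *Twist1* in Erythroid cells at E8.5 (-2.10, adjusted p = 0.0255). An unadjusted p under 0.05 was reached in 6.67, 10.8 and 10.3% of these tests, where 4.05, 4.32 and 6.26% of all gene tests did so. The median absolute log2 fold change of the 10 was 0.21, 0.19 and 0.20, against 0.14, 0.16 and 0.12 over all genes. Their median SE was also larger, 0.32, 0.29 and 0.32, against 0.23, 0.25 and 0.19 over all genes. The genotypes were also compared in the type where each gene was highest at E9.5. *Tfap2a* in Epidermis had 133 to 152 CPM in null and 102 to 192 CPM in WT libraries, and *Pax3* in Dermomyotome 190.2 to 303 and 237 to 327 CPM. *Ets1* in Venous endothelium had 215 to 346 and 258 to 296 CPM, and *Twist1* in Limb mesoderm 569 to 608 and 599.6 to 668 CPM. *Tfap2b* in Epidermis had 276 to 433 and 309.5 to 464 CPM, and *Snai1* in Presomitic mesoderm 97.3 and 76.9 and 93.7 and 99.5 CPM. In these 6, and in the crest types where *Foxd3*, *Sox10* and *Dlx2* were highest, the ranges of the genotypes overlapped, and for *Msx1* in Limb ectoderm they did not. Of the 50 pairs of a gene with 1 of its 5 highest WT types, 44 could be tested and 42 had a log2 fold change within 0.5 of 0. The exceptions were *Sox10* in Branchial arch neural crest (0.80) and *Foxd3* in Spinal cord progenitors (1.52, SE 1.25).

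Some tests outside the crest types reached an unadjusted p under 0.05 and not the adjusted one. At E7.5, before the crest, *Twist1* in Mesenchyme had 11.8 and 8.84 CPM in null and 22.0 and 21.6 CPM in WT libraries (log2 fold change -0.98, SE 0.25, edgeR adjusted p = 0.243). At E8.5 Erythroid cells gave log2 fold changes of -2.52 for *Pax3*, -1.94 for *Twist1* and -2.99 for *Tfap2b*, from WT means of 2.07, 6.46 and 1.41 CPM and null means of 0.36, 1.28 and 0.10 CPM, with edgeR adjusted p = 0.193, 0.294 and 0.332. *Pax3* and *Tfap2b* passed the filter on low counts there only through the WT libraries, so a call for them could only be lower in null cells. Markers of crest mesenchyme and neural tube lay higher in the same WT cells: 8 Branchial arch markers, *Twist1* and *Tfap2b* among them, summed to 3.18 and 5.33 CPM in null and 11.2 and 19.3 CPM in WT libraries, 7 frontonasal markers, *Twist1* among them, to 1.99 and 5.57 against 12.3 and 18.1 CPM, and 6 neural tube markers to 5.57 and 5.90 against 8.29 and 22.3 CPM. Surface ectoderm and placode markers and somite and muscle markers also lay higher in these WT cells. For 8 Migratory neural crest markers, *Tfap2b* among them, the ranges overlapped (medians 7.37 CPM in null and 10.1 CPM in WT libraries). They also overlapped for 5 endothelium markers, with the higher median in null libraries (7.75 against 5.72 CPM), and for 4 heart markers. The part of transcripts from other cell types in the differences of *Pax3*, *Twist1* and *Tfap2b* and in the DESeq2 call was not tested. Without E8.5 null B the log2 fold changes were -2.53, -1.53 and -2.61. *Twist1* there had 2.16 and 0.398 CPM in null and 6.02 and 6.91 CPM in WT libraries, with no overlap. *Foxd3* in Spinal cord progenitors at E8.5 had 17.8 and 3.67 CPM in null and 5.49 and 2.57 CPM in WT libraries, overlapping (log2 fold change 1.80, SE 0.53, edgeR adjusted p = 0.786; -0.03 to 2.39 with a library left out, and called with no filter on low counts, adjusted p = 0.012). At E9.5 *Msx1* in Hindbrain neural progenitors was at 95.4, 65.7, 118 and 36.4 CPM in null and 41.5, 40.6, 22.1 and 43.7 CPM in WT libraries, the ranges overlapping (log2 fold change 1.17, SE 0.36, edgeR adjusted p = 0.399). In Limb ectoderm, its highest type, *Msx1* had 219 and 259 CPM in null and 307 and 339 CPM in WT libraries, with no overlap in 2 against 2 (log2 fold change -0.43, SE 0.16, edgeR adjusted p = 0.794); there *Pax3* had 49.4 and 50.1 CPM in null and 104 and 62.5 CPM in WT libraries, also apart (log2 fold change -0.78, SE 0.26, edgeR adjusted p = 0.619). *Tfap2b* in Pharyngeal endoderm had 4.09, 0.492, 3.26 and 0.757 CPM in null and 8.27, 7.5 and 6.96 CPM in WT libraries, again apart (log2 fold change -1.54, SE 0.46, edgeR adjusted p = 0.328). There too *Tfap2b* passed the filter on low counts only through the WT libraries, so a call could only be lower in null cells.

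Over whole libraries, 0 of 8, 0 of 10 and 0 of 10 genes were called between genotypes at the 3 stages in turn by edgeR and by DESeq2, where edgeR called 2.36, 0.0278 and 0.58% of all genes, and 2, 3 and 2 of them reached an unadjusted p under 0.05, where 12.9, 4.57 and 10.4% of all genes did. At E7.5 these were *Tfap2a*, at 8.58 and 6.91 CPM in null and 5.59 and 4.70 CPM in WT libraries (log2 fold change 0.66, SE 0.18, edgeR adjusted p = 0.151), and *Twist1*, at 56.8 and 45.9 CPM in null and 39.2 and 39.0 CPM in WT libraries (log2 fold change 0.45, SE 0.12, edgeR adjusted p = 0.143), both apart and higher in null libraries. The 3 of E8.5 were apart and lower in null libraries. How many of all genes lie apart over whole libraries was not counted. In 2 against 2 libraries of Migratory neural crest at E8.5, 34.1% of all genes did. *Sox10* was at 5.55 and 5.61 CPM in null and 7.45 and 8.58 CPM in WT libraries, with no overlap (log2 fold change -0.54, SE 0.12, edgeR adjusted p = 0.573), and *Tfap2b* at 14.7 and 13.8 CPM in null and 19.2 and 17.8 CPM in WT libraries (log2 fold change -0.40, SE 0.10, edgeR adjusted p = 0.654). *Pax3* was at 23.1 and 25.2 CPM in null and 27.3 and 28.5 CPM in WT libraries (log2 fold change -0.23, SE 0.08, edgeR adjusted p = 1.0). Without E8.5 null B these log2 fold changes were -0.54, -0.34 and -0.28, each with an edgeR adjusted p = 1.0. In the same libraries the 3 crest types held 5.82 and 5.50% of null and 7.39 and 6.35% of WT cells, a difference of -1.21 percentage points (exact two-sided permutation test, p = 0.333, the smallest that 2 against 2 libraries allow), and -1.05 points without E8.5 null B. At E9.5 the direction was the other way, with 8.48 ± 0.72% of null and 7.32 ± 0.68% of WT cells (SD, n = 4 each), a difference of 1.16 points (exact two-sided permutation test, p = 0.0857, where 0.0286 is the smallest possible), over libraries that share embryos. Without E9.5 WT C or E9.5 WT D the difference was 1.17 or 1.27 points. Erythroid cells, which enter the total, were 0.083 to 0.388% of null and 1.63 to 5.32% of WT cells there, and with these and extra-embryonic cells out of the total the difference was 0.953 points (exact two-sided permutation test, p = 0.0857). There *Tfap2a* was at 16.6, 14.9, 12.4 and 9.79 CPM in null and 10.8, 11.2, 9.66 and 9.71 CPM in WT libraries (log2 fold change 0.37, SE 0.14, edgeR adjusted p = 0.392), the ranges overlapping, and *Dlx2* at 11.9, 10.7, 8.24 and 8.22 CPM in null and 8.08, 8.43, 8.42 and 7.35 CPM in WT libraries, also overlapping (log2 fold change 0.27, SE 0.12, edgeR adjusted p = 0.475).

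The wider list of 94 crest genes gave 1 call between genotypes. In Migratory neural crest 0 of 55 tested were called at E8.5 (median log2 fold change -0.10, against 0.00 over all genes) and 0 of 66 at E9.5 (0.04), in Branchial arch neural crest 0 of 65 (-0.07) and in Frontonasal mesenchyme 1 of 57 (-0.08), where 0.0218, 0.149, 0.188 and 0.234% of all genes were called. An unadjusted p under 0.05 was reached by 7.27, 7.58, 9.23 and 17.5% of them, where 4.97, 6.04, 6.6 and 6.4% of all genes did so. The call was *Itga4*, an integrin subunit of migrating crest, at E9.5 at 6.01, 4.64, 6.46 and 8.96 CPM in null and 17.6, 16, 10.8 and 13.7 CPM in WT libraries of Frontonasal mesenchyme. Every null library was below every WT library (log2 fold change -1.09, SE 0.24, edgeR adjusted p = 0.0341). DESeq2, more than 50 cells per library, keeping the WT-sorted cells with a tomato-td UMI, or leaving out any of E9.5 WT A, WT B, null B and null C took the call away.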

How the data were processed

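Single cells of chimeric embryos had been counted with the 10x 3′ v3 chemistry in 16 libraries. Per the submitters' processing notes the authors used Cell Ranger and mm10, and per the study's methods an annotation of GRCm38 with a tomato-td sequence added. They deposited raw UMI counts per gene and cell, with no normalization, after filters on UMIs, genes and the percent of mitochondrial and ribosomal UMIs per cell. They also scored doublets with scds and transferred cell type labels from the 25 nearest atlas cells. Those labels, stages and sort gates were used as deposited. From the 41832 cells, 3395 (8.12%) were dropped as doublets and 596 of the WT sort because they held a tomato-td UMI.

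Libraries were assigned to a genotype and stage from the sort and stage labels. Library names match no sample title, so no library was tied to a pool or embryo, and, since 2 embryos were used at E9.5 per the study's methods, the 4 libraries per genotype there share embryos. Counts were summed per library and cell type, and divided by the summed UMIs of all genes to give CPM, which is not adjusted by TMM. A cell type was tested if 2 or more libraries of each group held over 15 of its cells, with the edgeR (version 4.0.16, R 4.3.3) quasi-likelihood test (robust, filterByExpr, TMM), with Benjamini-Hochberg adjustment within each of 73 fits over all genes that passed the filter. Calls required both an adjusted p under 0.05 and an absolute log2 fold change over 1. The tests did not include 8192 of the 29453 genes by name or position, among them predicted genes, Y-linked, mitochondrial, ribosomal protein and globin genes. Intervals are 95% intervals from the quasi-likelihood fit. The code was tested on simulated data. The 10 genes and the list of 94 were chosen with earlier results of these data known. The text names all 10 genes in each comparison, with values in the crest types and in the 5 types of highest mean WT CPM at E9.5, every gene called, other crest genes called in a crest type with groups apart, the 3 genes most alike in pattern, and *Stat3*. A few other genes are not reported here.

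Depth was 360 to 4327 cells and 20682659 to 138613245 UMIs per library, and the median per cell was 28049 to 57791.5 UMIs in null and 18205 to 39962 UMIs in WT libraries, ranges that overlap. Counting intervals cover counting error only. Alternatives were DESeq2 (version 1.42.0), other scaling, no filter, all genes, other cell sets, more than 50 cells, 1 fit of all libraries, no fold threshold and leaving out each library. Where leaving out a library left 1 in a group, all remaining libraries with enough cells, of every stage and both genotypes, were fitted together. Shares of cells were taken after thinning each cell to 10000 UMIs.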

Additional observations from a re-analysis of the deposited data

Results flagged for a closer look

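In 76 groups of 4 libraries at E9.5 the lowest and the highest library were compared with the others, by the gap to the nearest library over the range of the group, and 3 stood apart, where chance gives about 1 in 20. *Pax3* in null Frontonasal mesenchyme was at 48.0 CPM in library C and at 55.8 to 56.5 CPM in the others, all below the WT libraries. *Sox10* in null Branchial arch neural crest was at 9.74 CPM in library C and at 4.39 to 5.20 CPM in the others. *Twist1* in null Frontonasal mesenchyme was at 433 CPM in library B and at 310 to 326 CPM in the others.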

How the results depend on the processing

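No call reversed under any alternative. Of the values for whole comparisons under an alternative, 201 stayed the same and 22 moved. The share of all genes called under each alternative is not given. The counts below thus cannot be read as more or fewer than among all genes. Between genotypes within cell types, the 10 genes had 0 calls at E8.5, which became 1 with DESeq2, 4 with no filter on low counts (*Foxd3* in Spinal cord progenitors and *Pax3*, *Tfap2b* and *Twist1* in Erythroid cells) and 0 to 1 with a library left out (*Pax3* in Erythroid cells without WT A, *Msx1* in YS mesothelium without null A). At E9.5 the 0 calls became 1 with all 16 libraries in 1 fit (*Tfap2b* in Placodal ectoderm) and 0 to 1 with a library left out (*Msx1* in Presomitic mesoderm without WT A). From E8.5 to E9.5 in WT libraries, dropping the fold threshold gave 6 genes over whole libraries, where 0 were called, and 10 of 20 tests in the crest types, where 6 were called; leaving out a library gave 5 to 7 there. In null Migratory neural crest the 0 calls became 2 with more than 50 cells per library (*Snai1* and *Twist1*), 3 with no fold threshold and 0 to 1 with a library left out (*Snai1* without E8.5 null A, *Twist1* without E9.5 null C). The 1 call of the wider list at E9.5 became 0 with DESeq2, with WT-sorted tomato-td cells kept or with more than 50 cells, 3 with no filter, 2 with no fold threshold and 0 to 1 with a library left out. With more than 50 cells, 4 of 10 genes kept their highest type. The cause was not tested. No scaling moved the median of all genes by over 0.1, but the scalings compared all set the bulk of genes equal. That median thus cannot show how far the results depend on scaling. No paired analysis was possible because the library names carry no replicate number, pool or embryo. Crest types of 24 to 91 cells in some libraries limit the low genes most, *Foxd3* and *Sox10* outside Migratory neural crest and *Stat3* in all crest types.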

Other observations

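At E7.5, before specified crest is present, the genes lay in other tissues of WT embryos, and *Sox10* and *Tfap2b* were at a mean of 0.442 CPM or less in all 18 cell types. *Tfap2a* was highest in Non-neural ectoderm (50.4 and 65.3 CPM in the 2 libraries). *Msx1* had its highest mean in Lateral plate mesoderm (223 and 243 CPM), whose range overlapped that of Mesenchyme (mean 209 CPM). *Twist1* was highest in Paraxial mesoderm (189 and 210.0 CPM), where *Pax3* was at a mean of 14.6 CPM (21.5 CPM in the 1 library with enough Cardiopharyngeal progenitors SHF, 12 UMIs in 19 cells). *Snai1*, in gastrulation a factor of ingressing mesoderm, was at 68.1 CPM in Nascent mesoderm and *Foxd3*, a factor of pluripotent epiblast, at 24.6 CPM in Epiblast, each with 1 library of enough cells. *Ets1* was at 113 CPM in Haematoendothelial progenitors, also in 1 library.

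*Foxd3* in Spinal cord progenitors at E9.5 varied widely between libraries. Null libraries A, B and D had 1.10, 53.3 and 43.0 CPM, from 1, 45 and 50 UMIs, and WT libraries A, B and D had 6.12, 0 and 18.5 CPM, from 5, 0 and 33 UMIs. The ranges overlapped (log2 fold change 1.52, SE 1.25, edgeR adjusted p = 0.997).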
